A study of Danio rerio with 6 samples.

Results

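The 7 zebrafish genes described here are linked to the pteridines and purines of yellow and silvery pigment cells, by synthesis or by cell lineage. They are gch2, pts and xdh of pteridine synthesis, gart, paics and atic of purine synthesis, and ltk, a receptor kinase of the silvery cell lineage. The rule matched gene names, which were picked with earlier results of these data known, and each name matched 1 of the 31484 Ensembl gene IDs counted in whole embryos at 22 hours post fertilization. RNA was sequenced from 3 libraries of embryos with the genotype synpo2 wt/wt, called wild type here, and 3 libraries of embryos with the genotype synpo2 -/-, called mutant. The product of synpo2, synaptopodin-2, binds actin at the Z-discs of muscle. The labels give no strain, lesion, number of embryos per library or shared treatment beyond tricaine euthanasia.

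Zebrafish carry yellow xanthophores, silvery iridophores and black melanophores, all from the neural crest. Xanthophores fill with pteridines, which start from GTP, and iridophores stack plates of guanine, so both colours draw on the purine pathway that every dividing cell also uses. In zebrafish, loss of gart or paics is known to reduce pigment of all these cell types, and ltk is required for iridophores to form.

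Each library held between 32714170 and 34822328 counts except wild type replicate 1, with 142789686. The 7 genes took 15032 to 59493 counts per library. As a check of the labels, synpo2b, the 1 gene of that name among those counted, was at 3.96, 3.91 and 6.09 CPM (counts scaled to library size) in wild type and 1.71, 1.58 and 1.52 CPM in mutants. These ranges do not overlap, as for 9.63% of all tested genes with mutants lower, and the edgeR adjusted p was 0.150. The labels do not say which synpo2 copy carries the lesion. CPM below are scaled by edgeR's TMM factors, and ± is the SD over 3 libraries.

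The pteridine genes sit on 2 chromosomes of the GRCz10 build named in the submitters' processing notes. gch2 (ENSDARG00000099101, chromosome 12, 24994391 to 25001210, plus strand) has 6 exon blocks and 1932 nt of counted sequence. pts (PTS, ENSDARG00000045269, chromosome 12, 209353 to 308958, minus strand) has only 1006 nt of counted sequence in a span of 99.6 kb. Of that span, 96.6 kb is the longest gap between its 12 exon blocks. Another 7 counted genes lie within that span, with 0 nt of shared exon. xdh (XDH, ENSDARG00000055240) lies on chromosome 17 from 33388199 to 33421929 on the plus strand. ltk (ENSDARG00000042861) lies on chromosome 17 as well, from 31383621 to 31466506 on the minus strand.

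The purine genes lie apart from each other. gart (GART, ENSDARG00000101089) is on chromosome 18 from 160820 to 188582, minus strand. paics (PAICS, ENSDARG00000033539) is on chromosome 20 from 25719024 to 25732166, minus strand, and shares 766 nt of exon with PPAT on the plus strand, the gene of the first committed purine step. atic (ATIC, ENSDARG00000016706) is on chromosome 1 from 4739585 to 4806325, plus strand, and shares 333 nt of exon with the homeobox gene mnx2b and 3 nt with the fibronectin gene FN1, both on the minus strand. No source used here gives the strand setting of the counting, and reads of these shared stretches cannot be told apart.

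Per kilobase of counted exon, 5 of the 7 genes were abundant and 2 were scarce. In wild type paics stood highest at 58.0 ± 17.8 RPKM (CPM per kilobase), with gch2 at 52.6 ± 5.09 and pts at 41.9 ± 6.29 RPKM. atic followed at 28.6 ± 7.86 and gart at 21.5 ± 6.85 RPKM. Then came a wide gap to ltk at 0.339 ± 0.117 and xdh at 0.203 ± 0.0393 RPKM. paics was at the 94.1 percentile of 20415 tested genes and xdh at the 4.89 percentile. Within libraries, paics was above gch2 in wild type replicates 1 and 2 and below it in replicate 3. atic was above gart in each wild-type library, at 26.3, 37.4 and 22.2 RPKM against 16.1, 29.2 and 19.2 RPKM. In mutants the order was paics (105 ± 78.5 RPKM), gart (42.9 ± 32.8), atic (39.7 ± 19.96), pts (27.7 ± 8.35), gch2 (25.9 ± 8.63), ltk (0.193 ± 0.0352) and xdh (0.109 ± 0.0168) by their means. The places of gart and atic in that order rest on mutant replicate 1, where gart was at 80.5 and atic at 62.3 RPKM. In mutant replicate 3 gch2, at 35.2 RPKM, was above atic at 24.3 and gart at 20.5 RPKM. With so few reads, xdh rested on 17 to 115 counts per library and ltk on 24 to 123.

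**Figure D1:**
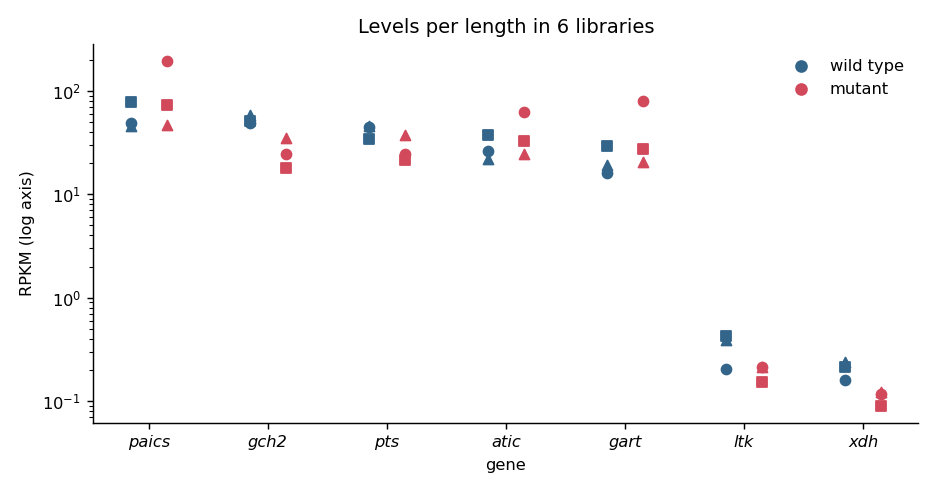
Level per kilobase of counted exon (RPKM, log axis) of the 7 genes in 3 wild-type (blue) and 3 mutant (red) libraries, with circles, squares and triangles for replicates 1, 2 and 3. All but ltk and xdh lie above 10 RPKM in every library, and those 2 lie below 1 RPKM.

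Wild type and mutant were compared to see whether pigment synthesis genes differ with the synpo2 genotype. The pteridine genes and ltk had lower means in mutants, and the purine genes had higher means that came from 1 mutant library. By edgeR's quasi-likelihood test 0 of the 7 genes passed an adjusted p of 0.05 over all tested genes, where 15 genes (0.0735%) passed, 0.0588% lower and 0.0147% higher in mutants. At an unadjusted p under 0.05, which 11.2% of all genes reached, 3 of the 7 passed, namely gch2, pts and xdh, all on the lower side, as were 6.83% of genes. DESeq2, which called 2.2% of genes and 1.5% as lower, called gch2 alone among the 7 (adjusted p = 0.0115). In simulated counts with known changes, DESeq2 made 79 false calls and edgeR 9 among 20156 genes. Of the 2-fold changes planted there, DESeq2 recovered 46% and edgeR 30%. The simulated counts were drawn gene by gene with edgeR's own dispersions and without shifts shared by the genes of a library. They therefore cannot say whether the DESeq2 call of gch2 is false.

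gch2 encodes GTP cyclohydrolase, the entry enzyme of pteridine synthesis, in the copy that zebrafish pigment cells use. It was at 94.0, 98.2 and 113 CPM in wild type replicates 1 to 3, and at 47.1, 35.0 and 68.0 CPM in mutant replicates 1 to 3. Every mutant library lay below every wild-type library, and mutant replicate 3 came closest. The mean was 102 ± 9.84 CPM in wild type, against 50.1 ± 16.7 CPM in mutants (n = 3 each). On the log2 scale the difference was -1.02 (SE 0.23). edgeR gave an unadjusted p of 0.00301 and an adjusted p of 0.257, and an exact two-sided permutation test of the 20 splits gave 0.1, the smallest p that 3 against 3 allows.

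xdh encodes xanthine dehydrogenase, which oxidises pteridines in xanthophores and in other tissues turns xanthine into uric acid. It was at 0.918, 1.23 and 1.36 CPM in wild type, against 0.661, 0.517 and 0.699 CPM in mutants. The groups did not overlap here either, and the order of the 6 libraries from high to low was the same as for gch2. The log2 fold change was -0.88 (SE 0.31), with an edgeR adjusted p of 0.378. Ranges apart with mutants lower occurred in 9.63% of all tested genes, and 2 of the 7 genes, gch2 and xdh, had them. With mutants higher, 8.45% of all genes and 0 of the 7 had ranges apart.

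pts encodes 6-pyruvoyltetrahydropterin synthase, the step after GTP cyclohydrolase. It was at 45.5, 34.9 and 46.2 CPM in wild type, against 24.9, 21.4 and 37.4 CPM in mutants. The groups overlapped, since mutant replicate 3 exceeded wild type replicate 2. The log2 fold change was -0.60 (SE 0.23, edgeR adjusted p = 0.405), and the exact permutation p was 0.2. Within each library the gch2 level per length was 1.08 to 1.46 times that of pts in wild type and 0.853 to 0.986 times in mutants, ranges that do not overlap. This ratio was not among the planned comparisons, and how many other gene pairs have such ranges apart was not counted.

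**Figure D2:**
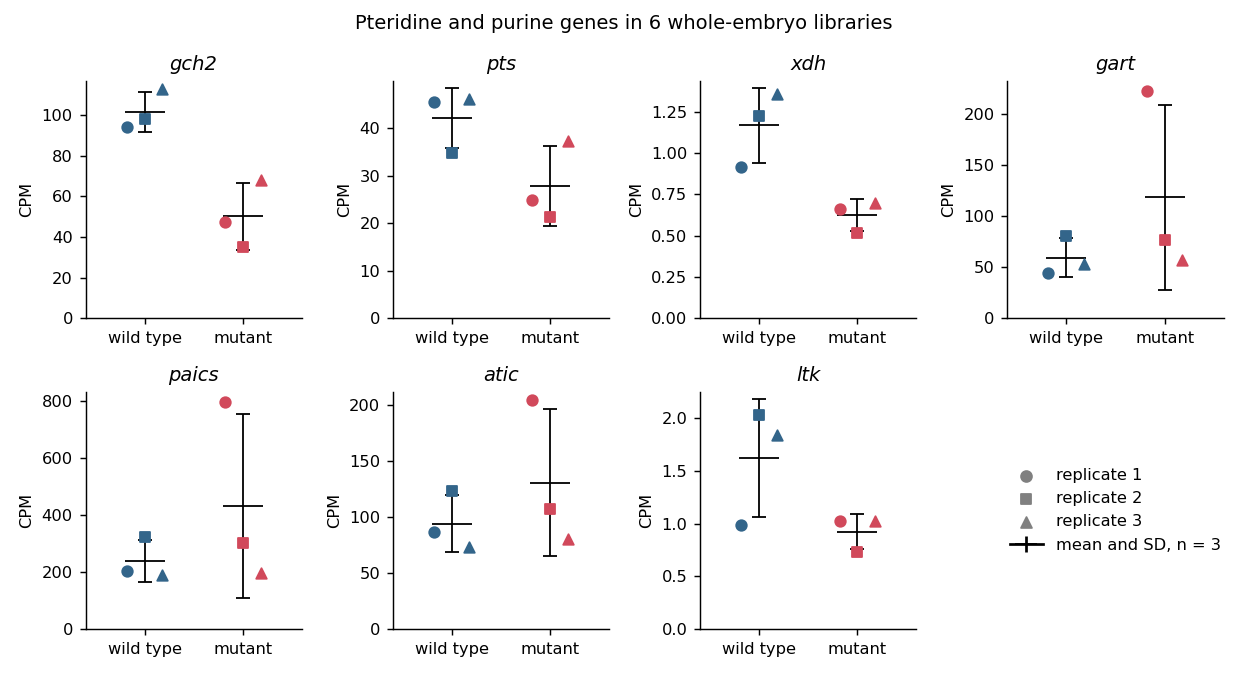
CPM of each gene in wild type (blue) and mutant (red) libraries, with the replicate shown by the symbol and the mean and SD (n = 3) in black, each axis starting at 0. gch2 and xdh show groups that do not overlap, while gart, paics and atic each have 1 high mutant library, replicate 1.

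The pteridine list held values on both sides of wild type. Of 13 tested genes, 9 were below wild type and 4 above, 0 passed in either direction, and the median log2 fold change was -0.40, against 0.01 over all tested genes. Without gch2, pts and xdh the median of the other 10 was -0.09. GCH1, the other GTP cyclohydrolase gene, was at 7.21 ± 0.867 CPM in wild type, against 7.68 ± 1.23 CPM in mutants. The gch2 level per length was 33.8, 35.7 and 50.6 times that of GCH1 in wild type and 16.5, 15.5 and 21.7 times in mutants, a ratio free of library scaling that was chosen after the values were seen. Sepiapterin reductase has 2 counted copies under the symbol SPR. The scarcer copy (ENSDARG00000058553) was at 1.52 ± 0.533 CPM in wild type, against 0.634 ± 0.266 CPM in mutants (log2 fold change -1.25, SE 0.44), and the more abundant one (ENSDARG00000004406) at 13.7 ± 1.17 and 14.7 ± 0.480 CPM.

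aox5, an aldehyde oxidase gene that marks zebrafish xanthophores, was at 10.9, 16.2 and 14.99 CPM in wild type, against 6.55, 5.78 and 10.93 CPM in mutants. The groups were apart by a narrow margin, and the log2 fold change was -0.86 (SE 0.29, edgeR adjusted p = 0.364). GCHFR, the feedback regulator of GTP cyclohydrolase, had a log2 fold change of -0.76 (SE 0.39) and the related oxidase aox6 of -0.40 (SE 0.38). PCBD1, which recycles the cofactor tetrahydrobiopterin, was at 0.34 (SE 0.28), and MYCBP2, a ubiquitin ligase gene whose loss alters xanthophore colour in zebrafish, at 0.09 (SE 0.11). The 2 tested QDPR copies, which regenerate the same cofactor, were at -0.06 and -0.12.

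Most genes of the xanthophore list had means below wild type. Of 12 tested genes of the xanthophore list, gch2 and xdh among them, 11 were below wild type, 0 passed, and the median log2 fold change was -0.71. Without gch2 and xdh, 9 of 10 were below and the median was -0.60. Both PAX7 copies, transcription factor genes of the xanthophore lineage that are also expressed in the neural tube and muscle, were among them. They were at 44.9 ± 3.90 CPM against 26.4 ± 6.21 (ENSDARG00000070818, log2 fold change -0.77) and at 46.9 ± 0.863 against 28.4 ± 9.23 CPM (ENSDARG00000100398, -0.72). slc2a15b and slc2a11b, transporter genes needed for xanthophore pigment or differentiation in medaka, were at log2 fold changes of -0.79 (SE 0.28) and -0.51 (SE 0.18). csf1ra, the receptor gene of migrating xanthophores, was at 0.887 ± 0.463 and 0.536 ± 0.345 CPM with overlapping groups. Nearer to 0 were the transcription factor gene SOX5 (log2 fold change -0.13, SE 0.10) and a copy of another, PAX3 (ENSDARG00000010192, -0.20, SE 0.15). The other PAX3 copy (ENSDARG00000028348) was at -0.48 with a wide SE of 0.51. SCARB1, a lipoprotein receptor gene that xanthophores use for carotenoid uptake, was the exception at 0.96 on the log2 scale (SE 0.35). It was at 12.5, 12.9 and 10.3 CPM in wild type, against 36.1, 20.2 and 13.2 CPM in mutants. Every mutant library lay above every wild-type library, and mutant replicate 1 was highest. In whole embryos, fewer cells of a type and less RNA per cell cannot be told apart.

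Marker lists of other tissues also differed in level between the libraries, while 0 of their genes passed. By the sign of the log2 fold change, as in all such counts here, 49.1% of all tested genes were below wild type. Mean log2 CPM of 11 fast muscle genes was 8.71, 7.85 and 8.75 in wild type, against 6.38, 6.24 and 7.60 in mutants, and their summed level ran from 7253 to 11068 CPM and from 3913 to 6749 CPM. All 11 were below wild type by that sign, and the ranges of the groups were apart for 6 of them. Mean log2 CPM of 14 tested melanophore genes was 2.95, 2.77 and 2.96 in wild type, against 1.81, 1.62 and 2.35 in mutants, with 13 of 14 below wild type and a summed level of 129 to 166 CPM and 65.5 to 109 CPM. The 10 tested genes of tailbud and presomitic mesoderm, a tissue used up as the trunk extends, were all above wild type, at a mean log2 CPM of 3.58 to 3.67 in wild type and 4.08 to 4.45 in mutants (summed, 185 to 204 and 258 to 357 CPM). By these means, mutant replicate 2 was lowest for fast muscle and melanophore genes, as for gch2, pts and xdh, and highest for tailbud genes. Mutant replicate 3 was the mutant library nearest to wild type for all of these. For xdh these places rest on 17 to 24 counts per mutant library. By summed level, fast muscle was instead lowest in mutant replicate 1, at 3913 CPM, against 4253 CPM in mutant replicate 2. The 11 neuron genes were all below wild type by a median of -0.35, with a summed level of 837 to 1108 CPM in wild type, against 662 to 992 CPM in mutants. Ranges were apart with mutants lower for 8 melanophore genes and 1 neuron gene, and with mutants higher for 8 tailbud genes. Over all tested genes these shares were 9.63% and 8.45%. The part of developmental stage or of muscle content in the pteridine values was not tested.

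**Figure D3:**
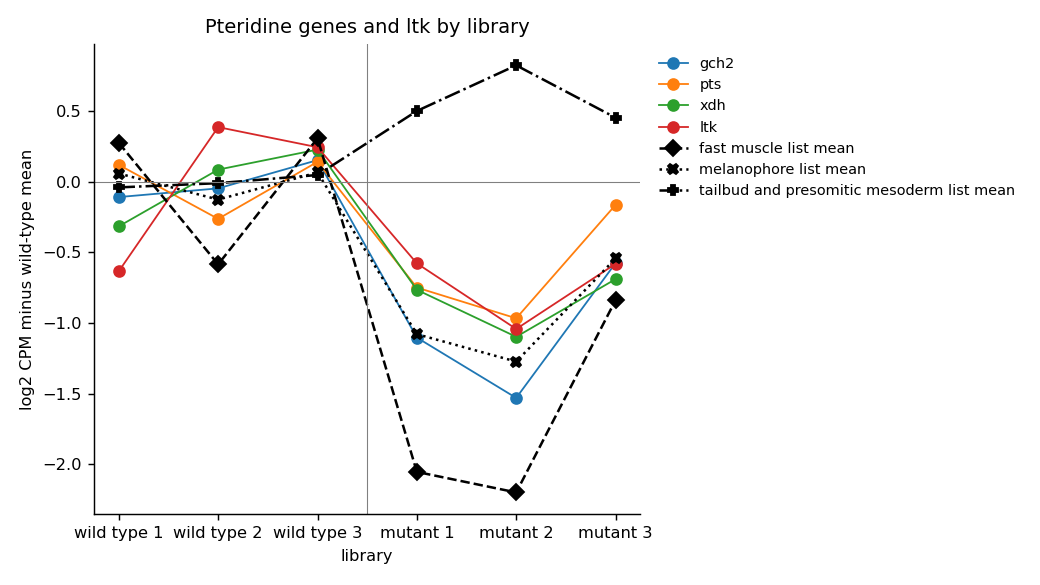
Log2 CPM of gch2, pts, xdh and ltk in each library minus its wild-type mean (coloured), with the mean of the fast muscle, melanophore and tailbud lists (black), where lines only link points of a series. The 4 genes and the first 2 lists dip in the mutant libraries, most in mutant 2, and the tailbud list is highest there. ltk also dips in wild type 1, to -0.63, which is below its values in mutants 1 and 3.

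The purine genes showed another pattern, set by single libraries. paics encodes the enzyme that carries out the carboxylation step and the succinocarboxamide step. It was at 203, 322 and 189 CPM in wild type, against 798, 303 and 194 CPM in mutants. Mutant replicate 1 was 2.48 times the next library, and the other mutant libraries lay within the wild-type range. The log2 fold change of 0.86 (SE 0.50, edgeR adjusted p = 0.558) was 0.08 (SE 0.30) without mutant replicate 1.

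gart encodes an enzyme with several activities, glycinamide ribonucleotide synthesis and formylation among them. It was at 44.5, 80.6 and 53.0 CPM in wild type, against 222, 76.1 and 56.5 CPM in mutants. Mutant replicate 1 was 2.76 times wild type replicate 2, which came next. The log2 fold change was 0.995 (SE 0.51, edgeR adjusted p = 0.511), and 0.17 (SE 0.28) without mutant replicate 1.

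atic encodes the enzyme of the final steps to inosine monophosphate. It was at 86.5, 123 and 72.8 CPM in wild type, against 205, 107 and 79.9 CPM in mutants, with the libraries in the same order as for paics. The log2 fold change of 0.47 (SE 0.36, edgeR adjusted p = 0.644) was 0.00 (SE 0.25) without mutant replicate 1. All 3 genes had a wide spread within wild type as well, with replicate 2 highest, while the paics level per length stayed at 2.32 to 3.07 times that of gart in every library.

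The 6 genes that lead from phosphoribosyl pyrophosphate to inosine monophosphate, PPAT, gart, PFAS, paics, ADSL and atic, were all highest in mutant replicate 1, as were 21.1% of tested genes. PFAS, the amidotransferase gene of this route, was at 34.7, 81.4 and 50.6 CPM in wild type, against 196, 59.6 and 51.2 CPM in mutants. It followed gart closely, with mutant replicate 1 at 2.41 times the next library. gart, paics and PFAS were at least 2 times every other library there, and 2.25% of tested genes were. atic was at least 1.5 times every other library, as were 4.5% of tested genes. PPAT, at 57.1 ± 0.847 CPM in wild type, hardly varied there, and was at 112, 74.6 and 57.0 CPM in mutants. ADSL, which acts both in this route and on the way to AMP, was at 56.8 ± 12.2 and 83.4 ± 25.2 CPM.

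Genes before and after these steps lay on both sides of wild type. GMPS, which makes GMP and is needed for zebrafish iridophores, was at 104 ± 12.4 CPM in wild type, against 112 ± 13.7 CPM in mutants. The abundant IMPDH1 copy (ENSDARG00000029524), of the step before GMPS, was at 213 ± 23.3 and 185 ± 8.82 CPM, and IMPDH2 at 64.2 ± 2.93 and 74.1 ± 19.1 CPM, with mutant replicate 1 highest. The scarce IMPDH1 copy (ENSDARG00000042336) was at 1.41 ± 0.612 and 0.868 ± 0.148 CPM with overlapping groups (log2 fold change -0.72, SE 0.40). prps1b, which makes phosphoribosyl pyrophosphate, was at 44.3 ± 0.252 and 38.0 ± 1.35 CPM with groups apart (log2 fold change -0.22, SE 0.09). Of 14 tested genes of de novo purine synthesis, 9 were above and 5 below wild type, 0 passed, and the median log2 fold change was 0.15.

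Folate genes that supply formyl groups to gart and atic held members of both kinds. MTHFD1L, which makes mitochondrial formate, was at 55.1, 75.7 and 45.7 CPM in wild type, against 311, 121 and 63.7 CPM in mutants, a log2 fold change of 1.49 (SE 0.54, edgeR adjusted p = 0.387). Mutant replicates 1 and 2 exceeded every wild-type library and replicate 3 did not. MTHFD1 (ENSDARG00000040492), its cytosolic relative, and SHMT1, a serine hydroxymethyltransferase gene, were at log2 fold changes of 0.79 (SE 0.40) and 0.44 (SE 0.23), again with mutant replicate 1 highest. ALDH1L1, which removes formyl groups, was lower in all mutant libraries, at 24.5 ± 4.27 CPM in wild type, against 15.01 ± 0.618 CPM in mutants (log2 fold change -0.70, SE 0.16, edgeR unadjusted p = 0.00293, adjusted p = 0.257). mthfd2l was at -0.92 (SE 0.30) and mthfd2 at 0.35 (SE 0.15). Of the 12 tested folate genes, 9 were above and 3 below wild type, 0 passed, and the median was 0.07.

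The yolk syncytial layer is the nucleated layer that feeds yolk lipid to the embryo. Its marker genes, like the purine genes, were highest in mutant replicate 1. The summed level of its 10 counted markers was 2997, 5828 and 2418 CPM in wild type, against 14780, 5549 and 1887 CPM in mutants. Mutant replicate 1 was highest for 9 of 9 tested markers, and wild type replicate 2 and mutant replicate 2 came next in the sum, as they did for paics, gart and atic. For PPAT and ADSL, mutant replicate 2 came second. The lowest library in the sum was mutant replicate 3. It was wild type replicate 3 for paics and atic, and wild type replicate 1 for gart. TTR, the untested marker, stayed under 0.5 CPM in all libraries. Macrophage markers were also highest in mutant replicate 1 for 8 of 10 tested genes, with a summed level of 21.0 to 28.4 CPM in wild type, against 16.7 to 41.8 CPM in mutants. The part of yolk-layer RNA in the purine values was not tested.

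**Figure D4:**
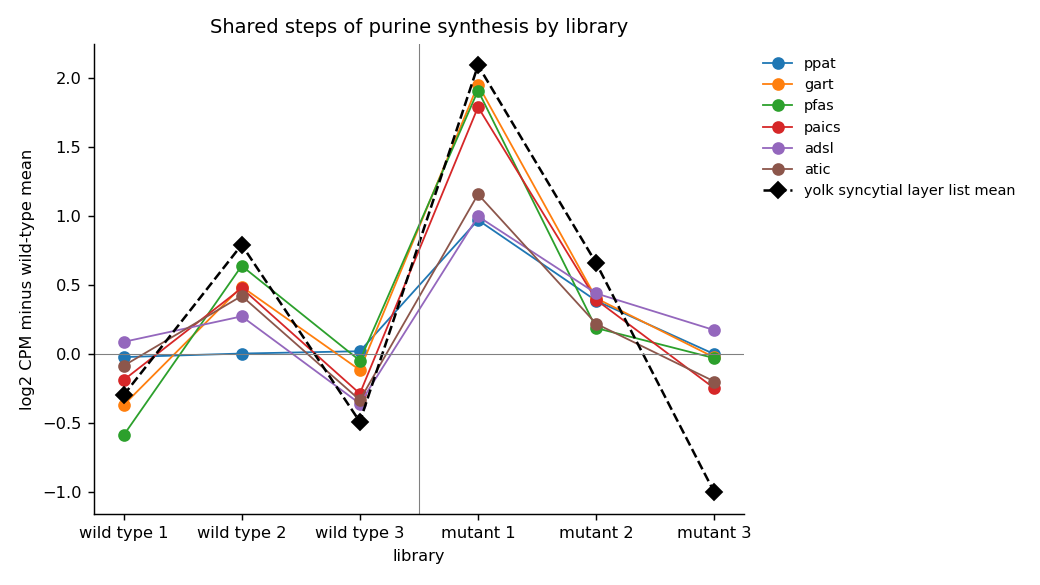
Log2 CPM of 6 purine synthesis genes in each library minus its wild-type mean (coloured), with the mean of 9 tested yolk syncytial layer markers (black, dashed), where lines only link points of a series. All 7 series peak in mutant 1, and all 6 genes lie within 0.44 of the wild-type mean or below it in mutants 2 and 3.

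ltk encodes a receptor tyrosine kinase of the Alk family, and its level was low throughout. It was at 0.982, 2.03 and 1.84 CPM in wild type, against 1.02, 0.730 and 1.02 CPM in mutants. The groups overlapped, because wild type replicate 1, the deepest library, lay below 2 of the mutant libraries. The log2 fold change was -0.79 (SE 0.37, edgeR adjusted p = 0.480), and it was -1.06 without wild type replicate 1 and -0.56 without wild type replicate 2. ALK, the related receptor, was at 0.538 ± 0.213 and 0.319 ± 0.0656 CPM. The ligand gene ALKAL2 was at 0.434 ± 0.0874 and 0.208 ± 0.104 CPM, alkal2b at 0.408 ± 0.158 and 0.167 ± 0.116 CPM, and alkal1 did not exceed 0.130 CPM in any library. Of the 5 genes of receptors and ligands, 3 were tested, all 3 were below wild type and 0 passed.

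Other genes of the iridophore list went different ways. pnp4a, a purine nucleoside phosphorylase gene that marks iridophores in zebrafish, was at 3.74, 2.97 and 2.77 CPM in wild type, against 0.722, 0.638 and 1.87 CPM in mutants. The groups were apart, with a log2 fold change of -1.56 (SE 0.45, edgeR unadjusted p = 0.00965, adjusted p = 0.322). TFEC, a transcription factor gene of iridophore and earlier crest precursors, was at 16.8 ± 1.37 CPM in wild type, against 20.7 ± 0.847 CPM in mutants, apart in the other direction. The ALX4 copies, homeobox genes expressed in iridophores and in head mesenchyme, were at log2 fold changes of -0.36 (SE 0.18) and -0.67 (SE 0.31), and EDNRB (ENSDARG00000089334), an endothelin receptor gene, of -0.14 (SE 0.42). Of 10 tested genes of the iridophore list, 6 were below and 4 above wild type, 0 passed, and the median was -0.11.

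Profiles most like those of single genes were sought among 16339 named genes that averaged 1 CPM or more, by Pearson correlation of log2 CPM over the 6 libraries, as a description only. Closest to gch2 were NRG2 (r = 0.993), TGM2 (0.993), rgs3b (0.991) and samm50l (0.987), a neuregulin, a transglutaminase, a regulator of G protein signalling and a mitochondrial sorting gene. TGM2 was at 48.7 CPM in wild type, against 18.6 CPM in mutants on average. Closest to paics were st3gal7 (0.998), cyp2y3 (0.997), CASK (0.997) and DMGDH (0.997). These values share the high point in mutant replicate 1, and without it they were 0.987 to 0.990. Closest to ltk were trim24 (0.995), the xanthophore gene slc2a15b (0.993), TK1 (0.990) and DPY19L3 (0.990). With 6 points, high values of this kind arise for many genes.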

How the data were processed

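Whole zebrafish embryos at 22 hours post fertilization were profiled in 6 libraries. The submitters' processing notes name STAR 2.5.2b, Trimmomatic 0.36 and the build GRCz10. The authors deposited raw counts per gene, with coordinates and counted exon length, 1 table per library. No source used here states the counting program, strand setting or treatment of multiply mapped reads. Sample titles gave the groups and replicate numbers, and the series calls the replicates biological. The labels do not say that the numbers pair the libraries, so the numbers were not used as pairs. Same-numbered libraries did not deviate together (r = -0.23, -0.10 and 0.18 across genes), which cannot exclude a pairing.

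filterByExpr of edgeR 4.0.16 (R 4.3.3) kept 20415 of 31484 genes. Counts were scaled by TMM, and the robust quasi-likelihood test, two-sided, compared mutant with wild type over all kept genes with Benjamini-Hochberg adjustment. RPKM divides CPM by counted kilobases. SE is the log2 fold change over the square root of F, and mean log2 CPM used a prior count of 2. DESeq2 1.42.0 and limma-voom 3.58.1 were alternatives. Code was tested on simulated data.

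The 7 genes and all lists were chosen with earlier results of these data known. List names were matched to 25752 available symbols ignoring case, or else without a final a or b. That second step was chosen once the symbols were known. Named genes were the 7, up to 6 others per pathway or lineage list (3 for melanophore, neural crest and cofactor-dependent lists) with the smallest p at a mean of at least 0.5 CPM, and the 4 closest profiles of gch2, paics and ltk. GCH1, the QDPR copies, the abundant SPR copy, IMPDH2, EDNRB, csf1ra, SOX5, the PAX3 copies, alkal1, alkal2b, ALK and ALKAL2 were named for their role after values were seen. One gene that this rule names is not reported here. Sequence motifs were not analysed here.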

Additional observations from a re-analysis of the deposited data

How the results depend on the processing

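The count of 15 called genes was 44 with no filter on low counts, 8 with at least 1 CPM in 3 libraries, 450 with DESeq2, 3 at an adjusted p under 0.01 and 0 with the replicate number as a block. The labels do not say whether the replicate numbers pair the libraries. With the replicate block, gch2 was at -1.07 on the log2 scale and was not called (adjusted p = 0.290). Leaving out 1 library at a time gave 0 to 16 called genes, the lowest without mutant replicate 2. There were 2 calls when wild type replicate 3 or mutant replicate 1 was left out, and 8 when mutant replicate 3 was. Of 111 alternative values of the 7 log2 fold changes, 110 kept their direction and stayed short of the threshold. The exception was gch2 with DESeq2 (-1.02), which passed. Without 1 library, the log2 fold change ran from -1.30 to -0.82 for gch2, -0.87 to -0.43 for pts, -1.04 to -0.76 for xdh, 0.17 to 1.33 for gart, 0.08 to 1.21 for paics, 0.00 to 0.74 for atic and -1.06 to -0.56 for ltk. The lowest paics, gart and atic values came without mutant replicate 1. xdh was not tested at 1 CPM in 3 libraries. An alternative chosen after seeing the data, the deepest library thinned to the depth of the rest, is among the 111. As TPM over all counted genes, wild-type levels were 108 for paics, 95.7 for gch2, 75.0 for pts, 53.0 for atic, 40.4 for gart, 0.639 for ltk and 0.375 for xdh, in the same order. Depth limits xdh and ltk, with under 50 counts in all mutant libraries.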

Other observations

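Enzymes that use tetrahydrobiopterin, the cofactor made from the products of pts, gave mixed values. TPH1 (ENSDARG00000036082), a serotonin synthesis gene, was at 3.13 ± 0.0296 CPM in wild type, against 2.28 ± 0.572 CPM in mutants, and NOS2 (ENSDARG00000031976), a nitric oxide synthase gene, at 7.90 ± 1.21 and 6.42 ± 1.31 CPM. Of 7 tested genes, 4 were below and 3 above wild type and 0 passed. Pyrimidine synthesis genes were highest in mutant replicate 1 for 3 of 8 tested genes, and 21.1% of all tested genes were. These were UMPS, CAD and the abundant CTPS1 copy. UMPS was at 75.2 ± 11.9 and 109 ± 30.3 CPM and CAD at 594 ± 152 and 807 ± 175 CPM. The CTPS1 copies were at log2 fold changes of 0.27 (ENSDARG00000030700) and -0.19 (ENSDARG00000098386), UCK2 at -0.10 and uck2b at 0.14.

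Of the other purine genes, the AMP deaminase gene AMPD2 had 2 copies with different profiles. ENSDARG00000104491 was at 13.0, 13.9 and 15.1 CPM in wild type, against 19.5, 18.2 and 18.8 CPM in mutants, with groups apart. ENSDARG00000029952 was at 2.31, 5.63 and 3.74 CPM in wild type, against 18.1, 3.01 and 4.40 CPM in mutants, with 1 high library. GDA, which removes guanine, was at 0.775 ± 0.0708 and 1.16 ± 0.251 CPM, and DCK, a nucleoside kinase gene, at 10.1 ± 0.721 and 8.24 ± 0.586 CPM. Of 17 tested genes of purine salvage and breakdown, 10 were below and 7 above wild type, and 0 passed.

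In the melanophore list MLPH, the melanophilin gene of melanosome transport, was at 1.57, 0.939 and 2.35 CPM in wild type, against 0, 0.0304 and 0.0874 CPM in mutants (edgeR adjusted p = 0.0887). pmela, a melanosome fibre gene, and GPR143, a melanosome receptor gene, were at log2 fold changes of -0.61 (SE 0.16) and -0.85 (SE 0.23). Neural crest genes, which pigment cells descend from, had a median log2 fold change of 0.06 over 15 tested genes. crestin was at 12.3 ± 2.37 CPM in wild type, against 22.2 ± 4.12 CPM in mutants, TFAP2E, a transcription factor gene of melanophores, at 5.12 ± 1.42 and 2.42 ± 0.659 CPM, and snai2 at 55.6 ± 6.17 and 69.2 ± 7.67 CPM.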
